A study of Homo sapiens with 4 samples.

Results

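The genes described here encode 10 cell-surface proteins by which primed human pluripotent stem cells are recognised, sorted or held together: CD24, THY1, EPCAM, CD9, F11R, CDH1, ALPL, PODXL, KDR and PROM1. They were chosen by name, as 10 of the 16174 genes in the deposited table, with their levels in these libraries already known, so the levels below are a description. All 10 were listed once. Long-read sequencing of poly(A) RNA had been used to follow H9 cells, a human embryonic stem cell line kept in the primed state, when the long non-coding RNA gene SNHG26 was repressed. All cells held a dCas9-BFP-KRAB transgene under doxycycline control, delivered by transposase and selected with puromycin. Its product is a Cas9 that binds but does not cut DNA, joined to a blue fluorescent protein and a transcriptional repressor. One arm also carried 4 pooled guides against SNHG26, and the other carried control guides without a target. Both arms received 1 µg/mL doxycycline, and RNA was taken after 2 or 3 days, with 1 library for each arm and day. No library without doxycycline was used here, so every level is one measured under induction. Each mean ± SD has n = 2 (SD over the libraries of an arm, which differ in day, or of a day, which differ in arm). Nothing in the labels says that the libraries came from separate cultures beyond arm and day, so the p-values measure the spread between these libraries only.

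Pluripotent stem cells in the primed state grow as a polarised epithelial sheet. E-cadherin (CDH1) joins neighbouring cells at adherens junctions, JAM-A (F11R) sits at tight junctions, and EpCAM is a homophilic adhesion molecule that supports proliferation when its inner part is cleaved. Podocalyxin (PODXL) is a sialomucin of the apical membrane and carries the TRA-1-60 and TRA-1-81 glycan epitopes. CD24, THY1 (CD90) and tissue-nonspecific alkaline phosphatase (ALPL) are tethered by a glycosylphosphatidylinositol anchor, and all serve as stem-cell stains, with CD24 and THY1 used to tell primed from naive cells. CD9 is a tetraspanin that organises other membrane proteins, PROM1 (CD133) is a pentaspan protein of membrane protrusions, and KDR (VEGFR2) is the main signalling receptor for VEGF and marks early mesoderm and endothelium as well as some pluripotent cultures.

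RefSeq promoter windows were available for 5 of the 10 genes (CD24, KDR, PROM1, ALPL and CD9). The 2 printed here are those whose last base lies directly before the listed 5′ end of the gene. They belong to the gene with the highest TPM and to the gene with the largest difference between the days among those above the expression filter. Each holds 250 bases upstream of the start, 5′ to 3′ on the minus strand, in build GRCh38.p14, at chr6:106975628-106975877 for CD24 and chr4:55125596-55125845 for KDR, with capitals marking the GC box GGGCGG or its reverse complement.
CD24: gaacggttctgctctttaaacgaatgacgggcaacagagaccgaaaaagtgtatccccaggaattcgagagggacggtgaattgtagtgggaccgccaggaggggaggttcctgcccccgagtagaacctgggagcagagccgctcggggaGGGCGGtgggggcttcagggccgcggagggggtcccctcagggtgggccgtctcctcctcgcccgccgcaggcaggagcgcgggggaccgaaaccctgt
KDR: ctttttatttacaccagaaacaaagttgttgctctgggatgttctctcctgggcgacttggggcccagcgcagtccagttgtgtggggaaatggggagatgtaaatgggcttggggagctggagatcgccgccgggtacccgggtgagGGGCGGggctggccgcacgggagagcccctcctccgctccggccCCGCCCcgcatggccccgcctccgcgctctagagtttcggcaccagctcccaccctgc

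On both strands, the CD24 window held 1 GC box and the KDR window 2. A GC box stood in 42.6% of 35116 RefSeq windows of the same length, so holding one is common. Neither window held TATAAA (10.7% of windows), CCAAT (32.0%), the E-box CACCTG (17.5%) or the octamer ATGCAAAT (1.63%). The G and C share was 65.6% in the CD24 window and 65.2% in the KDR window, against a median of 58% over all windows. These counts describe letters only.

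The libraries were shallow. Placed on the full span of each gene, the values corresponded to at most 947338 to 1220270 reads per library. The TPM values behave as reads divided by genomic span with introns, so a long gene has a low TPM for a given number of reads. SNHG26, the target, stood at 0 TPM (knockdown) and 2.98 TPM (control) on day 2, and at 0.933 and 4.03 TPM on day 3, lower with its guides as labelled but on few reads. The label of a pluripotent line was checked against 10 markers of pluripotent cells, which do not tell H9 from other such lines. Of these, 9 were listed and 8 had a value, with summed levels of 1651 to 1891 TPM, POU5F1 highest at a mean of 1126 TPM, and ZIC2 listed at 0. Endothelial markers summed to 0.111 to 0.179 TPM, with ERG listed at 0. Mesenchymal genes summed to 20.1 to 28.1 TPM, with ZEB1 listed at 0. Neuroectoderm names summed to 17.3 to 24.97 TPM, most of it NES, with DLK1 listed at 0. Mesendoderm markers summed to 0 to 5.34 TPM, with EOMES listed at 0. Whether a listing at 0, here or below, means no transcript or reads not assigned to the gene was not tested.

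On the TPM scale the 10 genes spread from a mean of 195.2 TPM for CD24 to 0.204 TPM for PROM1. THY1 followed CD24 at 63.9, then EPCAM at 36.3, CD9 at 18.2, F11R at 11.4, CDH1 at 10.3, ALPL at 6.53, PODXL at 6.07 and KDR at 4.08 TPM. CD24 lay above THY1 and THY1 above EPCAM in every library. Among the lower genes, the ranges over the 4 libraries overlapped between CD9 and F11R, and ALPL, PODXL and KDR overlapped one another. F11R ranged from 5.04 to 17.2 TPM and also overlapped CDH1, ALPL, PODXL and KDR, and in the knockdown library of day 3 it lay below all 4. CD24 was above 94.3% of the 8274 genes whose mean reached 1 TPM, CDH1 above 63.7% and KDR above 41.7%. PROM1 was the single member below that filter.

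**Figure D1:**
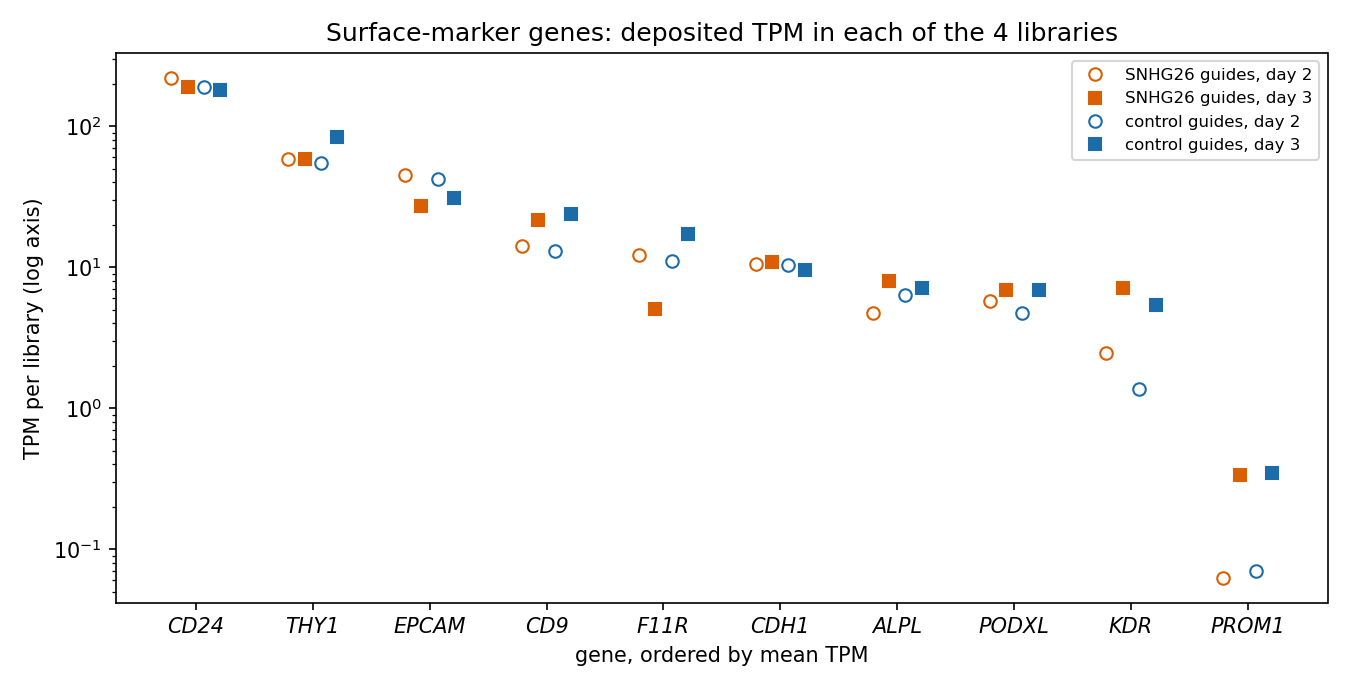
TPM of each of the 10 genes in each library, on a log axis, with open circles for day 2, filled squares for day 3, orange for the SNHG26 guides and blue for the control guides. The filled squares of CD9, KDR and PROM1 lie above their open circles in both arms, those of EPCAM lie below, and F11R has its lowest and highest point on day 3.

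The order depended on which length, if any, divides the reads. CD24 is listed over 5797 bases and CDH1 over 98246, so a read of CDH1 carries far less TPM. Taking the full-span reads over the spliced length of the longest coding GENCODE transcript, EPCAM came first with at most 139.8 reads per kb, followed by CD9 at 64.2 and CD24 at 63.3. CDH1 came next at 29.2 reads per kb, and PODXL, ALPL and THY1 lay close together at 24.9, 24.7 and 24.2. F11R (8.56), KDR (4.67) and PROM1 (0.841) were last on this scale. These are upper bounds, since reads of shorter transcripts would be fewer for the same TPM. The longest coding span was 17.2 times the shortest for PROM1, 9.29 times for ALPL, 9.28 times for EPCAM and 3.23 times for CD9. With the median span of each gene's transcripts in place of the full span, CD9 came first at 61.1 reads per kb, ahead of EPCAM at 48.3 and CD24 at 45.1, so the order of the leading genes on this scale is not fixed by the data. Without division by any length, EPCAM had the most reads, at a mean of at most 214.0, followed by CD24 at 159.2. E-cadherin (CDH1), sixth by TPM, came 3rd by reads at 142.7, ahead of CD9 at 100.5 and THY1 at 86.2.

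**Figure D2:**
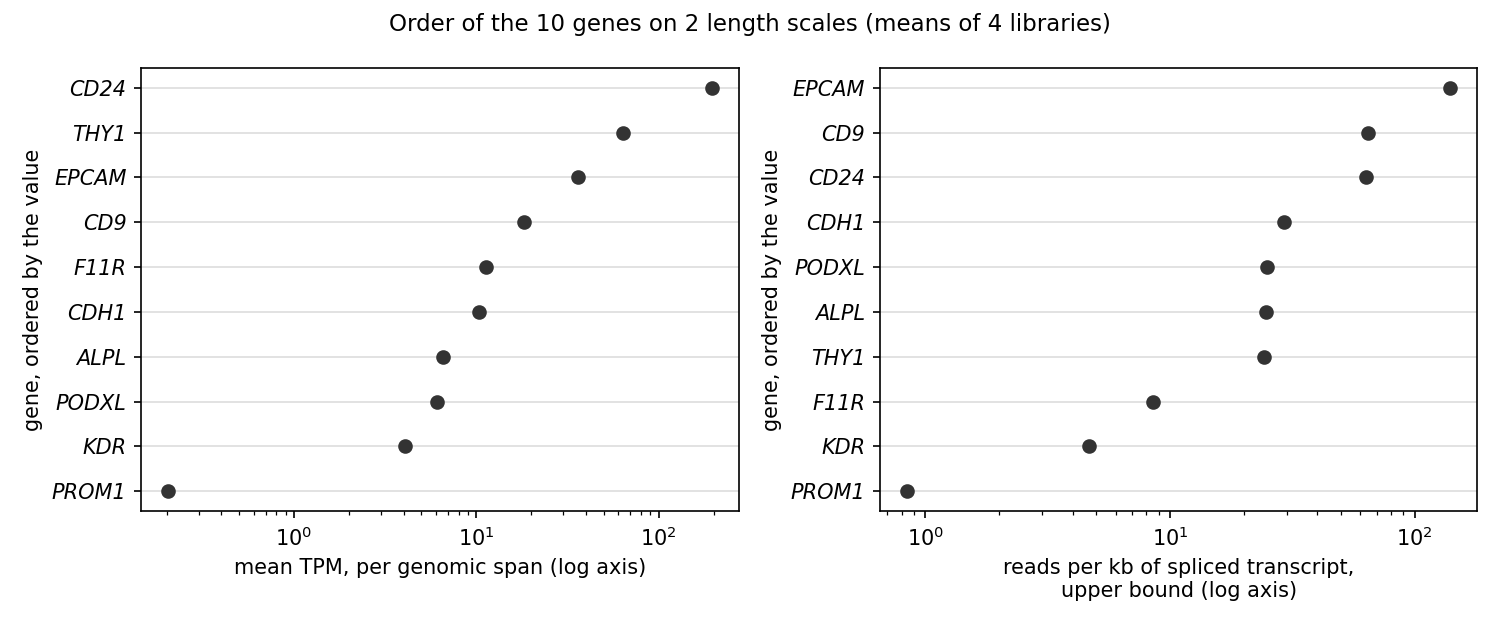
The 10 genes ordered by mean TPM per genomic span (left) and by the upper bound of reads per kb of spliced transcript (right), both as means of 4 libraries on log axes. CD24 leads on the left at 195.2 TPM and EPCAM on the right at 139.8 reads per kb, while KDR and PROM1 are last on both.

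The first comparison asked how the genes stood on day 3 against day 2 of doxycycline. KDR, CD9, ALPL and PODXL were higher on day 3 in both arms, EPCAM was lower in both, and the other 4 genes above the filter overlapped between the days. Limma, fitted on log2(TPM + 1) over 8274 genes, called none of the 9 members tested at an adjusted p of 0.05, and 2 (KDR and CD9) had an unadjusted p under 0.05. Limma's voom on full-span reads, run for 5503 genes, also called 0 of 9, with 3 (EPCAM added) at an unadjusted p under 0.05, against 0.0% and 5.14% of the genes in that fit. Over all genes the first test called 0.0363%, and 6.61% had an unadjusted p under 0.05. Those genes include some on at most 2 reads. A mean of at least 20 reads on the median transcript span, a filter chosen after seeing the data, left 2434 genes and all 9 members. Limma called 0 of these genes, and 9.49% of them and 3 of 9 members had an unadjusted p under 0.05. Members not overlapping between the days were 4 of 9 on the higher side, where 17.1% of all genes tested lay, and 1 of 9 on the lower side, where 18.4% lay. The median change of the 9 members was 0.31 on the log2 scale, with 0.03 for the knockdown and 0.45 for the control, and that of all genes was 0.01. The members were listed with these values known, so the counts are a description of the list.

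Of the receptors and adhesion proteins, KDR differed most between the days. It is listed on the minus strand of chromosome 4 from 55078481 to 55125595, a span identical to that of the coding transcript KDR-201. On day 2 it stood at 2.48 TPM (knockdown) and 1.36 TPM (control), and on day 3 at 7.07 and 5.42 TPM. Both day 3 values lay above both day 2 values. All 4 values were whole numbers of reads on this span, 16 and 51 with the SNHG26 guides and 8 and 38 with the control guides. The exact 95% Poisson intervals were 9.15 to 26.0 and 38.0 to 67.1 reads with the SNHG26 guides and 3.45 to 15.8 and 26.9 to 52.2 reads with the control guides, and they cover counting error only.

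The day 3 level of KDR was 2.86-fold the day 2 level in the knockdown (exact 95% interval from counting 1.60 to 5.37) and 3.97-fold in the control arm (1.82 to 9.86). The means were 1.92 ± 0.786 TPM on day 2 and 6.24 ± 1.17 TPM on day 3 (SD, n = 2). The log2 change was 1.33 (SE 0.38), with a limma adjusted p of 0.628 (unadjusted 0.0254). In voom, which weights each value by its depth, run on the 403 genes with whole reads and a mean of at least 10, KDR passed with an adjusted p of 0.00467 and a log2 change of 1.66 (SE 0.42), as 1 of 7 genes called (1.74%). The same fit with the guide arm as a block called 8 (1.99%), KDR included. With the same tool on 5503 genes with full-span reads, the log2 change was 1.65 (SE 0.50), with an adjusted p of 0.840. The unadjusted voom p was 0.0250 there and 6.95e-05 in the fit on 403 genes. The change and SE were similar, so the lower p came from pooling the spread more fully over the genes. The call thus does not measure the spread of KDR itself between the libraries. The voom fits were chosen after seeing the data. Without single libraries the log2 change stayed between 1.05 and 1.61, and it was 1.695 with a pseudocount of 0.1 and 0.701 with one of 5.

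**Figure D3:**
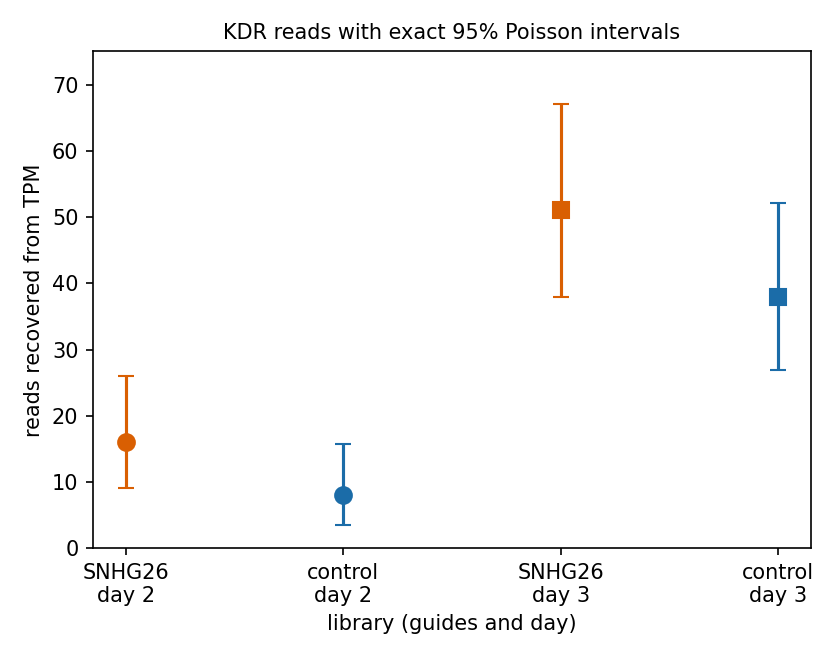
Reads of KDR in each library, recovered from the TPM values, with exact 95% Poisson intervals as bars. The 16 and 8 reads of day 2 lie below the 51 and 38 reads of day 3, and within each arm the intervals of the days do not overlap, while those of the arms overlap within each day. Across arms, in TPM, the interval of the knockdown library of day 2 (1.42 to 4.02) overlaps that of the control library of day 3 (3.83 to 7.43).

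VEGF genes and endothelial markers were read beside KDR. Of 8 listed genes of the VEGF family and its co-receptors, VEGFB alone passed the filter, at 21.9 and 30.7 TPM on day 2 and 7.86 and 12.1 TPM on day 3 in the knockdown and control arms. VEGFB, a ligand of the receptor FLT1, was thus lower on day 3 in both arms, with a log2 change of -1.32 (SE 0.34) and a limma adjusted p of 0.583. FLT4 and FLT1, the other VEGF receptors, had means of 0.531 and 0.149 TPM, and VEGFA was listed at 0. Endothelial markers with a listing were 3 of 9, and their sum was 0.121 and 0.179 TPM on day 2 and 0.162 and 0.111 TPM on day 3, in the knockdown and control arms. From day 2 to day 3 it was higher in the knockdown arm and lower in the control arm, at levels near 0. TEK held most of it at a mean of 0.132 TPM, and the part of endothelial cells in the KDR values was not tested. Mesendoderm markers with a listing were 3 of 10 names, and they summed to 0 TPM in both libraries of the SNHG26 guides and to 5.34 TPM (day 2) and 1.98 TPM (day 3) with the control guides. Each of these sums was 1 gene in 1 library, CER1 on day 2 and MIXL1 on day 3. In a bulk sample, more cells with a transcript and more transcript per cell cannot be told apart.

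PROM1 (chromosome 4, 15963076 to 16084378, minus strand) had the same direction on far fewer reads. It stood at 0.0628 and 0.0696 TPM on day 2 and at 0.337 and 0.347 TPM on day 3, in the knockdown and control arms. The full-span bounds of 1.04 and 1.05 reads on day 2 leave 1 read in each library, and those of 6.27 on day 3 allow at most 6 reads. With 6 against 1 read, the ratio was 5.38 in the knockdown arm (exact 95% interval from counting 0.652 to 247.3) and 5.02 in the control arm (0.609 to 230.7), so no difference was detectable at this depth in either arm. PROM1 lay below the filter. The limma test without a filter over 13840 genes gave a log2 change of 0.33 (SE 0.09) with an adjusted p of 0.665 (unadjusted 0.0267). On log2(TPM + 1), values far below 1 TPM lie close together, so this SE does not show the counting error of so few reads. Its listed span also shares 6234 bases with FGFBP2 on the same strand, and reads there cannot be assigned with certainty.

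CD9 (chromosome 12, 6199715 to 6238271, plus strand) stood at 14.2 and 13.1 TPM on day 2 and at 21.5 and 23.9 TPM on day 3, in the knockdown and control arms. The day groups did not overlap, with means of 13.6 ± 0.783 and 22.7 ± 1.66 TPM (SD, n = 2). The ratio of day 3 to day 2 was 1.52 (knockdown) and 1.83 (control). On the log2 scale the change was 0.70 (SE 0.23), with a limma adjusted p of 0.703 (unadjusted 0.038). Among the partners of CD9 in tetraspanin complexes and the partners of EpCAM and podocalyxin, 11 genes were tested and limma called 0 between the days, with 0 at an unadjusted p under 0.05. Their median change was 0.07. CD63, a tetraspanin of late endosomes and the cell surface, had 491.1 and 395.8 TPM on day 2 and 508.7 and 421.7 TPM on day 3. CD151, a tetraspanin bound to laminin receptors, had 36.1 and 43.9 TPM on day 2 and 47.8 and 44.1 TPM on day 3.

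EPCAM (chromosome 2, 47345158 to 47387601, plus strand) went the other way. It stood at 45.1 and 41.9 TPM on day 2 and at 27.3 and 30.8 TPM on day 3, in the knockdown and control arms. The day 3 level was 0.607 of the day 2 level with the SNHG26 guides and 0.736 with the control guides, with means of 43.5 ± 2.26 and 29.1 ± 2.45 TPM (SD, n = 2). The log2 change was -0.57 (SE 0.20), with a limma adjusted p of 0.750 (unadjusted 0.0506). EPCAM had at most 177.7 to 262.3 reads per library. GENCODE lists coding transcripts of EPCAM from 4499 to 41743 bases in span, so a shift between them would alter the TPM at equal reads. Such a shift was not tested, here or for ALPL and CD9, whose coding spans also differ widely.

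The other junction proteins did not share one direction. CDH1 (chromosome 16, 68737292 to 68835537, plus strand) stood at 10.6 and 10.3 TPM on day 2 and at 10.8 and 9.57 TPM on day 3, in the knockdown and control arms. It varied least of the 10 genes, with a highest value 1.13 times its lowest, on at most 125.6 to 162.5 reads. The log2 change between the days was -0.03 (SE 0.24), with a limma adjusted p of 0.991. Of 13 tested genes listed as partners at adherens and tight junctions, 3 were higher and 10 lower on day 3, with a median change of -0.20. Without overlap between the days, 1 of the 13 was higher and 2 were lower, where 17.1% and 18.4% of all genes lay. Limma called 0 of the 13 and 1 had an unadjusted p under 0.05. That gene was ESRP1, an epithelial splicing regulator and not itself a junction protein. It stood at 26.0 and 19.4 TPM on day 2 and 12.4 and 5.53 TPM on day 3. Its log2 change was -1.33 (SE 0.46), with a limma adjusted p of 0.737. CLDN7, a claudin that binds EpCAM, stood at 172.0 and 154.5 TPM on day 2 and at 161.3 and 124.1 TPM on day 3, and CLDN6, a claudin of pluripotent cells, at 17.3 and 12.1 TPM and then 11.7 and 13.1 TPM.

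Mesenchymal genes were read beside the junction genes. Of 5 tested, limma called 0 between the days and 0 had an unadjusted p under 0.05, with a median change of 0.19. SNAI1, a repressor of E-cadherin, stood at 3.703 and 9.52 TPM on day 2 and at 6.63 and 10.2 TPM on day 3 in the knockdown and control arms. VIM, the intermediate filament of mesenchymal cells, stood at 7.20 and 5.15 TPM and then 9.01 and 2.87 TPM, and COL1A2, a collagen chain, at 3.79 and 7.47 TPM and then 5.01 and 7.72 TPM. The summed level of the list was 20.1 and 25.9 TPM on day 2 and 26.0 and 28.1 TPM on day 3, and its part in the values of EPCAM was not tested.

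PODXL (chromosome 7, 131500262 to 131558217, minus strand) stood at 5.76 and 4.76 TPM on day 2 and at 6.90 and 6.86 TPM on day 3, in the knockdown and control arms. The days did not overlap, with ratios of 1.20 and 1.44. Its log2 change was 0.34 (SE 0.27), with a limma adjusted p of 0.760. The enzymes that build the glycans recognised by stem-cell antibodies were hardly seen. Of 13 listed, 3 passed the filter, limma called 0 between the days, with 0 at an unadjusted p under 0.05, and ST3GAL2, CHST2 and B3GALT5 were listed at 0. FUT1, a fucosyltransferase of H antigens, stood at 3.15 and 10.4 TPM on day 2 and at 2.82 and 2.90 TPM on day 3. FUT4, which makes SSEA-1, stood at 3.66 TPM (day 2) and 1.09 TPM (day 3) with the SNHG26 guides and was listed at 0 with the control guides. Outside the control library of day 2, the FUT1 values fit an equal number of reads per library. Both genes fit very few reads in any library, and whether their differences exceed counting error was not tested.

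Among the anchored proteins, ALPL (chromosome 1, 21509397 to 21578410, plus strand) stood at 4.76 and 6.32 TPM on day 2 and at 7.98 and 7.06 TPM on day 3, so the days did not overlap, with ratios of 1.68 and 1.12 in the knockdown and control arms. Its log2 change was 0.39 (SE 0.29), with a limma adjusted p of 0.760. ALPG, a related alkaline phosphatase of germ cells, rested on 1 read or none per library. SLC20A1, a phosphate carrier, stood at 19.2 and 25.6 TPM on day 2 and at 18.3 and 14.6 TPM on day 3. CD24 (chromosome 6, 106969831 to 106975627, minus strand), the highest gene, stood at 219.5 and 190.1 TPM on day 2 and at 190.2 and 180.8 TPM on day 3, with a log2 change of -0.14 (SE 0.16) and a limma adjusted p of 0.813.

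THY1 (chromosome 11, 119415476 to 119424985, minus strand) stood at 58.4 and 54.4 TPM on day 2 and at 58.3 and 84.4 TPM on day 3, in the knockdown and control arms. The control library of day 3 stood apart, and the other 3 values lay within 54.4 to 58.4 TPM. The log2 change between the days was 0.31 (SE 0.26), with a limma adjusted p of 0.760, and it was 0.05 without that library. The whole listed span of THY1 lies within USP2-AS1 on the opposite strand, and whether counting used strand is not given in the sources used here.

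**Figure D4:**
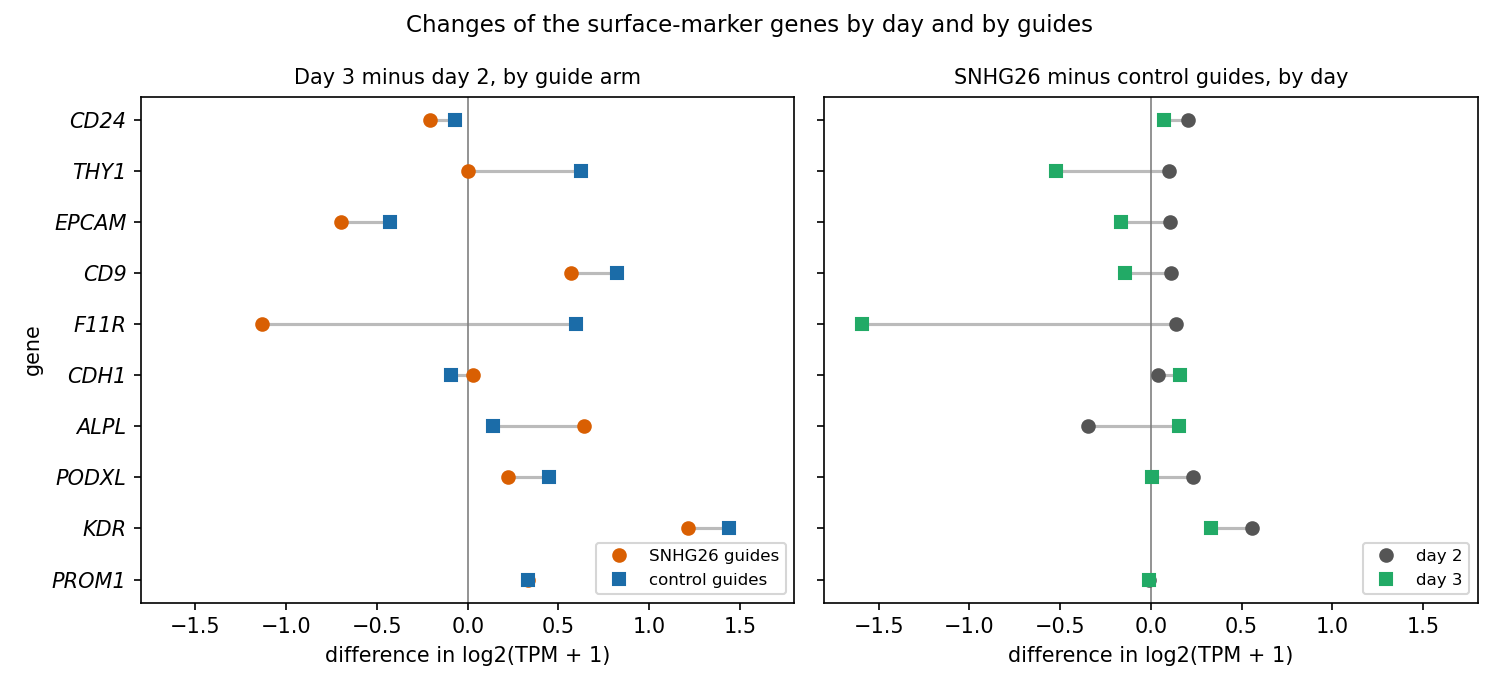
Differences in log2(TPM + 1) for the 10 genes, day 3 minus day 2 in each guide arm (left) and SNHG26 minus control guides on each day (right), with a grey line joining the 2 values of a gene. On the left, KDR lies farthest right at 1.22 and 1.44 and EPCAM at -0.70 and -0.43, and on the right F11R spreads from 0.14 on day 2 to -1.59 on day 3.

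The second comparison asked whether the genes differed between the SNHG26 guides and the control guides. Limma called 0 of the 9 members tested and 0.0% of all genes, and no member had an unadjusted p under 0.05, against 4.07% of all genes. Voom on full-span reads also called 0, and 0 had an unadjusted p under 0.05, against 2.45% of the genes in that fit. Adjusted p-values of the members ran from 0.935 to 0.998. CD24 and CDH1 were higher with the SNHG26 guides without overlap, 2 of 9 where 16.1% of all genes tested lay on that side, and 0 of 9 were lower without overlap, where 13.2% of all genes lay. The median change was -0.02, with 0.11 on day 2 and 0.01 on day 3, and that of all genes was 0.04. The summed level of the 10 genes was 354.2 ± 26.5 TPM in the knockdown and 349.8 ± 23.4 TPM in the control libraries (SD, n = 2; exact two-sided permutation p = 0.667, where 0.3333 is the smallest that 2 against 2 libraries allow).

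CD24 had a mean of 204.8 ± 20.7 TPM in the knockdown and 185.5 ± 6.58 TPM in the control libraries (SD, n = 2), a log2 change of 0.14 (SE 0.18) and a limma adjusted p of 0.964. Leaving out the knockdown library of day 2 gave 0.0362, and leaving out that of day 3 gave 0.242. Its lowest knockdown value, 190.2 TPM, and its highest control value, 190.1 TPM, were nearly the same. CDH1 had means of 10.7 ± 0.157 and 9.92 ± 0.494 TPM, a log2 change of 0.10 (SE 0.28) and a limma adjusted p of 0.998. EPCAM had means of 36.2 ± 12.5 and 36.3 ± 7.83 TPM, and CD9 of 17.9 ± 5.20 and 18.5 ± 7.65 TPM, with log2 changes of -0.03 (SE 0.37) and -0.02 (SE 0.43). For EPCAM and CD9 the spread within an arm was the difference between its days.

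KDR had means of 4.77 ± 3.25 TPM (knockdown) and 3.39 ± 2.87 TPM (control). On each day it was higher with the SNHG26 guides, by 1.82-fold on day 2 (exact 95% interval from counting 0.733 to 4.90) and 1.31-fold on day 3 (0.841 to 2.04), and both intervals include equality. The log2 change was 0.44 (SE 0.74), with a limma adjusted p of 0.990. PODXL (log2 change 0.12, SE 0.35), ALPL (-0.10, SE 0.38) and THY1 (-0.21, SE 0.30) had limma adjusted p-values of 0.998, 0.998 and 0.972. THY1 became 0.10 without the control library of day 3. PROM1 differed by -0.01 on each day in log2(TPM + 1), a scale that brings differences between values far below 1 TPM close to 0. With 1 read in each arm on day 2, its ratio of knockdown to control was 0.908 (exact 95% interval from counting 0.0116 to 71.2). With 6 reads in each arm on day 3, it was 0.973 (0.260 to 3.64).

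F11R (chromosome 1, 160995211 to 161021175, minus strand) held the widest gap between the arms. It stood at 12.2 and 11.004 TPM on day 2, in the knockdown and control arms, and at 5.04 and 17.2 TPM on day 3. The arms were within a ratio of 1.11 on day 2, and on day 3 the knockdown value was 0.294 of the control value. The log2 change was -0.72 (SE 0.53), with a limma adjusted p of 0.935. It was -0.16 without the knockdown library of day 3, -0.43 without the control library of day 3, and -1.29 and -1.02 without the knockdown and control libraries of day 2. The guide change of day 3 minus that of day 2, tested over the 4 libraries, was -1.73 (SE 0.94) with a limma adjusted p of 0.961, and for THY1 it was -0.62 (SE 0.55) with the same adjusted p. In that test limma called 0 of the 9 members, with 0 at an unadjusted p under 0.05, against 0.0967% and 3.52% of all genes.

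Few reads lie behind the F11R values, at most 43.6 and 35.6 on day 2 and 20.02 and 66.3 on day 3, in the knockdown and control arms. GENCODE lists F11R transcripts from 1268 to 26138 bases in span. One read on the shortest would add 5.30 TPM in the control library of day 3. In the knockdown library of day 3 it would add 5.15 TPM, more than the whole F11R value there, so none was counted on it. Whether the other libraries held reads on short transcripts was not tested. The gene also shares 23219 bases with AL591806.3 on the same strand.

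Other surface proteins of pluripotent cells were counted beside the 10. Of 35 listed, 19 passed the filter, and limma called 0 between the arms (1 at an unadjusted p under 0.05) and 0 between the days (0 at an unadjusted p under 0.05). Their median change was 0.09 with the guides and 0.04 with the day. Of 7 surface markers of the naive state, 4 passed the filter, and limma called 0 in either comparison, with 0 at an unadjusted p under 0.05 for the guides and 1 for the day. All 4 had a higher mean log2 value on day 3, with a median change of 0.73 with the day and 0.21 with the guides. Only 1 of the 4 was higher without overlap between the days, where 17.1% of all genes lay. The 1 gene, by p-value and by overlap, was ATP1B2, a sodium pump subunit. It stood at 11.7 and 8.21 TPM on day 2 and 17.2 and 20.6 TPM on day 3 in the knockdown and control arms. Its log2 change was 0.87 (SE 0.29), with a limma adjusted p of 0.734. A4GALT, the enzyme that makes CD77, stood at 0.839 to 3.74 TPM, with a log2 day change of 0.62 (SE 0.53). CD7 stood at 0 TPM in the control library of day 2 and at 2.39 to 2.66 TPM in the others, with a day change of 0.84 (SE 0.78). The CD7 values above 0 fit an equal number of reads per library, so its change rests on the 0 in that control library. The median day change of the list lies midway between A4GALT and CD7. Of the genes listed as adherens and tight junction partners, ESRP1 included, limma called 0 of 13 between the arms. None had an unadjusted p under 0.05, and the median change was 0.16.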

How the data were processed

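Poly(A) RNA of 4 H9 libraries was copied into cDNA from an oligo-dT primer and amplified by PCR (14 cycles), per the labels' protocols, which describe no molecular identifiers. Copies of 1 molecule could thus not be told apart. Intervals on reads cover counting error alone and treat each read as independent, so they may be too narrow. TPM per gene was deposited by the authors in 1 table, with 1 column per library. Alignment used minimap2 2.24-r1122 and build GRCh38, per the submitters' processing notes. The counting tool, the annotation release and any filter are not given in the sources used here.

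The worth of 1 read was taken as the most frequent product of TPM and listed length. With it, 2853 of the 13840 genes above 0 (20.6%) gave whole reads in all libraries within 0.0001 read. Other genes have reads as upper bounds on the full span. Transcripts were taken from GENCODE release 29, matched by name.

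Limma 3.58.1 in R 4.3.3 tested log2(TPM + 1) for genes whose mean reached 1 TPM, using a mean-variance trend and Benjamini-Hochberg adjustment over all genes at 0.05. The members and lists were chosen with earlier results of these data known. Named beside the members were the 3 highest genes of each list by mean TPM. Some of these are not reported here. Same-day libraries deviated from their arm means with a correlation of 0.046 over 8274 genes. Alternatives were pseudocounts of 0.1 and 5, other filters, scalings, no trend, the replicate block and leaving out each library. Filters by reads and voom (lib sizes on the TPM scale) were chosen after seeing the data. The test was tried on simulated data with known changes and counting error only, which does not show how it performs on these libraries.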

Additional observations from a re-analysis of the deposited data

How the results depend on the processing

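Between the arms, limma called 0 genes and 0 members under each alternative except voom on whole-read genes with the replicate block, which called 3 of 403 (CCDC86, MT-CO1 and MT-ND4, named after their values were seen). No member was among them. Between the days, the 3 genes called (SNORD68, MT-TG and RNVU1-31, each on at most 2 reads) were down to 0 under the replicate block, under either other pseudocount, without the trend or the filter, under quantile scaling, with 20 estimated reads or voom on full-span reads (both with and without the block), and 0 without any one library. Voom on whole-read genes called 7, and 8 with the replicate block. KDR was among both, with log2 changes of 1.66 without and 1.66 with the block (adjusted p 0.00467 and 0.00118), and in no other setting run did a member pass. For the difference between days in the guide change, the 8 genes were 14 at a pseudocount of 0.1 and 13 among genes averaging 5 TPM or more. The number was 0 at a pseudocount of 5, without the trend, without the filter, with 20 estimated reads, in either voom test, and without any one library.

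Where a library was left out, the lone library of a group was assumed to vary like the others. The median guide change of the members then ran from -0.16 to 0.11, and their median day change from 0.05 to 0.33. The guide change ran from -0.38 to 0.32 for EPCAM, from -0.11 to 0.34 for PODXL, from -0.52 to 0.10 for THY1, from -0.28 to 1.16 for KDR, from -0.42 to 0.23 for ALPL and from -0.43 to 0.39 for CD9. Without a change of sign, it ran from -1.29 to -0.16 for F11R, from 0.0362 to 0.242 for CD24 and from 0.0531 to 0.146 for CDH1. The day change ran from -1.06 to 0.53 for F11R and from -0.11 to 0.0471 for CDH1. For F11R the change of sign came without the knockdown library of day 3. The cause was not tested. The replicate block changed no call of a member beyond those given. Depth limits PROM1 most, with at most 6 reads in any library.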
